A study of Arabidopsis thaliana with 24 samples.

Results

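Transcripts of cytosolic ribosomal protein genes were measured in whole seedlings of Arabidopsis thaliana by strand-specific mRNA sequencing. The genes were chosen by identifier as proteins of the large or small subunit of the cytosolic ribosome, and number 60 of the 32833 genes counted. They comprise 34 large subunit genes and 26 small subunit genes in 35 protein families, of which 15 are represented by 1 gene, 15 by 2 and 5 by 3. RefSeq annotates 59 of the 60 as structural constituents of the ribosome. AT3G18740 carries the symbol RLK902, a receptor kinase name, although its annotated product is a ribosomal protein of the L30e family, and it is called by its identifier here.

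The libraries came from wild type Col-0 and from the exa1-1 mutant, both 9 days old and grown on 1/2 MS medium with 1% sucrose. In the salt series each genotype was kept for 60 min on 1/2 MS or on 200 mM NaCl, and in the heat series for 60 min at 23 °C or at 39 °C. Each of the 8 groups held 3 libraries described as independent biological replicates, 24 in all. EXA1 encodes a GYF domain protein, a class that binds proline-rich partners. The sources used here do not give the kind of lesion in exa1-1, and every mutant library comes from this single allele.

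Cytosolic ribosomes are built from ribosomal RNA and a large set of proteins, each needed in about equal amount, so the genes for both subunits are usually expressed together. In Arabidopsis nearly every ribosomal protein is encoded by a small family of paralogous genes, and the paralogues can differ in level and in where they are used. Growth signals that act through the TOR kinase and its target S6 kinase promote the expression and translation of these transcripts, and stress commonly lowers their expression in plants.

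The upstream sequences of 3 families whose paralogues parted under salt or heat are shown, because paralogues of RPS9 and RPSa also differ in the elements they carry while those of RPL10 share site II. They were picked after the values were seen. Each line gives the 120 bases before the annotated gene start in the RefSeq annotation of TAIR10.1, read 5′ to 3′ on the strand of the gene. Capitals mark site II elements, TGGGCC or TGGGCT, and telo boxes, AAACCCTAA, or the reverse complement of either. The first 3 genes are the RPL10 family (AT1G14320 at chr1:4887994-4888113, AT1G26910 at chr1:9321530-9321649 and AT1G66580 at chr1:24838970-24839089, all on the plus strand). RPS9 follows (AT5G15200 at chr5:4936430-4936549, minus strand, and AT5G39850 at chr5:15949790-15949909, plus strand), and then RPSa (AT1G72370 at chr1:27244932-27245051 and AT3G04770 at chr3:1311130-1311249, both minus strand).
AT1G14320: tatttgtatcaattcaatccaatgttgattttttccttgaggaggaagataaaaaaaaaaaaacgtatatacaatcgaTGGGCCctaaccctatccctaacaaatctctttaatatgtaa
AT1G26910: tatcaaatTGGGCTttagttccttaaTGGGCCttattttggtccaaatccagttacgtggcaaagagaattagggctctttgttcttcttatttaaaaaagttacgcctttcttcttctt
AT1G66580: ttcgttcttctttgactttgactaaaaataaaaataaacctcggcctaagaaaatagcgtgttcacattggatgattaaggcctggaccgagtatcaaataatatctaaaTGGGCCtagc
AT5G15200: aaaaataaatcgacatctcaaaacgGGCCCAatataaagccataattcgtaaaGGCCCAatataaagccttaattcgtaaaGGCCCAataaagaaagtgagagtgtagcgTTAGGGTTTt
AT5G39850: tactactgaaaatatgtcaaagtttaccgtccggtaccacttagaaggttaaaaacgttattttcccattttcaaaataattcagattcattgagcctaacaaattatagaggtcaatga
AT1G72370: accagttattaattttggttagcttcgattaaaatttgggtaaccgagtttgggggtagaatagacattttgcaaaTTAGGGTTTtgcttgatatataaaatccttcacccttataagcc
AT3G04770: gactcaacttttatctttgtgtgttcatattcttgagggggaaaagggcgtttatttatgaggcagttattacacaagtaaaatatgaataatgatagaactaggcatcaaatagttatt

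All 3 RPL10 genes carried a site II element in these windows. In RPS9 and RPSa the elements stood only before the more abundant gene, AT5G15200 and AT1G72370. Other families showed the reverse. In RPL19 and RPL10a a site II element within 250 bases stood only before the less abundant gene, AT3G16780 and AT1G08360. A relation of elements to level was not tested. In the 250 bases before the annotated start, a site II element on either strand was present in 42 of 60 genes (70.0%), against 104 of 153 other cytosolic ribosomal protein genes (68.0%) and 5264 of 27443 protein-coding genes (19.2%). A telo box was present in 5 genes (8.33%), against 2.61% of protein-coding genes, and 17 genes had neither element. Genes with and without site II had like median log2 changes, of -0.46 and -0.49 under salt and 0.61 and 0.65 under heat in wild type. A match of letters is a description of the sequence and not of binding by a factor.

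Libraries held 17658196 to 20992263 counts, and all 60 genes passed the filter on low counts and had counts in every library. EXA1 (AT5G42950) was lower in exa1-1 in all 4 conditions with no overlap, for example with mean counts of 732 against 2589 on 1/2 MS and 282 against 2426 at 39 °C. The libraries held both shoot and root markers, and none of the 14 markers was at 0. The summed share of 7 root markers was 0.359 to 0.393% of counts in wild type on 1/2 MS, 0.204 to 0.209% under NaCl, 0.241 to 0.245% at 23 °C and 0.0815 to 0.0822% at 39 °C. The share of 7 shoot markers was 1.05 to 1.17%, 1.56 to 1.81%, 2.10 to 2.17% and 2.47 to 2.81% in those groups. In exa1-1 the root share was 0.354 to 0.381% on 1/2 MS, 0.232 to 0.241% under NaCl, 0.265 to 0.372% at 23 °C and 0.0746 to 0.0764% at 39 °C, so root markers were lower in the stressed libraries of both genotypes. The shoot share in exa1-1 was 0.820 to 0.873%, 1.00 to 1.06%, 1.61 to 1.77% and 2.01 to 2.06% in the same order, below wild type without overlap in all 4 conditions. The part of organ composition in the treatment and genotype results was not tested, and in whole seedlings fewer cells and less RNA per cell cannot be told apart.

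As a set the 60 genes were among the most abundant transcripts. Their median FPKM lay above 98.1% of nuclear protein-coding genes in each library, with FPKM values normalised by the authors for gene length and library total. The lowest of the 60 stood at percentiles of 42.1 to 71.7 among those genes, depending on the library. Mean FPKM over the 24 libraries was lowest for AT2G40010, a gene for the stalk base protein RPP0, at 7.51. It was 573.9, rank 2 of 60 from the top, for emb2386 (AT1G02780), a gene for the large subunit protein RPL19. The median gene stood at 254.5 FPKM. AT3G04770, AT1G26910, AT5G39850 and AT3G11250, at 18.2 to 39.0 FPKM, were also low, and like AT2G40010 each had a more abundant paralogue among the 60.

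Together the genes took the largest share of counts on 1/2 MS and the smallest at 39 °C. The share was 2.59 to 2.73% in exa1-1 and 2.41 to 2.56% in wild type on 1/2 MS, and 1.86 to 1.89% and 1.70 to 1.78% under NaCl. At 23 °C it was 1.72 to 1.81% in exa1-1 and 1.44 to 1.58% in wild type, and at 39 °C 1.33 to 1.47% and 1.25 to 1.34%. In the order of group means, neighbouring groups overlapped for exa1-1 at 23 °C and wild type under NaCl, for wild type at 23 °C and exa1-1 at 39 °C, and for both genotypes at 39 °C. The other neighbours did not overlap. Shares of the salt and heat series are set side by side as a description, since their controls differed.

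Large subunit genes stood slightly above small subunit genes in level per length. The difference of mean log2 FPKM, large minus small, was 0.17 to 0.22 in the 12 libraries of the salt series. It was 0.12 to 0.14 in wild type and 0.13 to 0.15 in exa1-1 at 23 °C. At 39 °C it was 0.05 to 0.07 in wild type and -0.01 to 0.01 in exa1-1. By this mean the 39 °C libraries lay below the 23 °C libraries without overlap in each genotype, while NaCl and 1/2 MS libraries overlapped. This difference within a library does not depend on how libraries are scaled. With the median over genes in place of the mean both statements changed in part. Wild type then overlapped between 39 °C (0.10 to 0.20) and 23 °C (0.14 to 0.17), exa1-1 did not (-0.06 to 0.00 and 0.04 to 0.12), and NaCl lay above 1/2 MS without overlap in wild type (0.37 to 0.40 and 0.31 to 0.33) and exa1-1 (0.32 to 0.33 and 0.21 to 0.28).

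**Figure D1:**
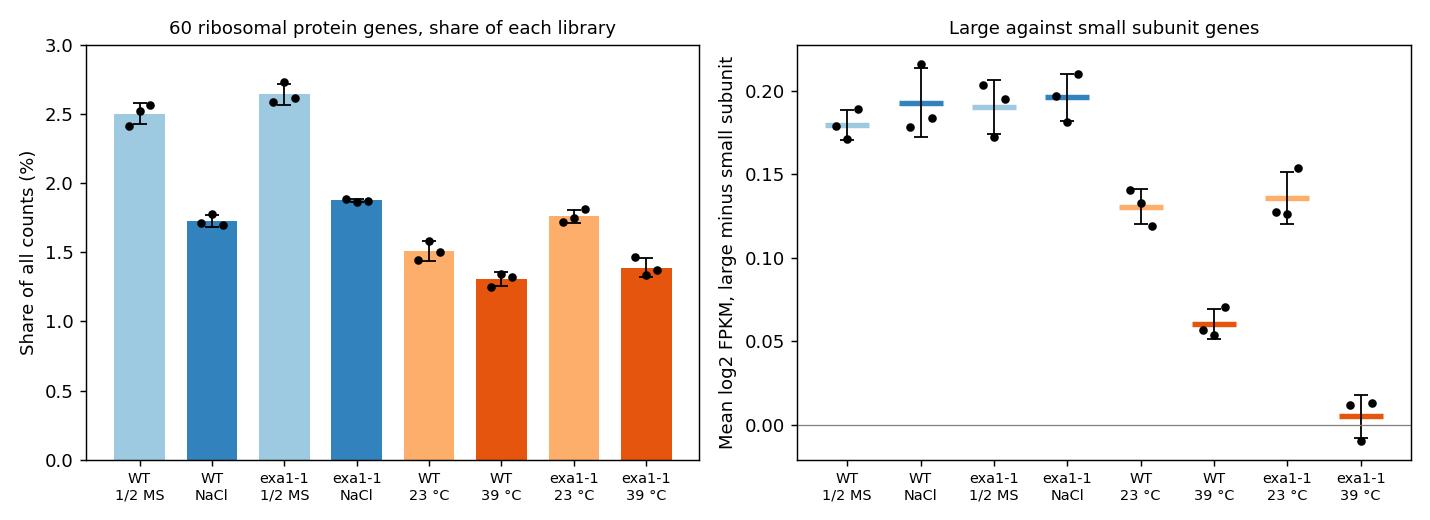
Left, share of all counts in the 60 genes (%), with a bar for the mean of each group of 3 libraries, points for libraries and error bars for the SD; right, mean log2 FPKM of large subunit genes minus that of small subunit genes, with lines for group means. The share is highest on 1/2 MS, 2.41 to 2.73%, and lowest at 39 °C, 1.25 to 1.47%, and the difference between subunits is smallest at 39 °C.

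Under salt almost the whole set fell, in both genotypes and both subunits. In wild type 58 of 60 genes were lower and 1 was higher after 60 min on NaCl, with a median log2 change of -0.46 (edgeR's quasi-likelihood test, Benjamini-Hochberg adjusted p under 0.05, TMM scaling). Among all genes tested, 35.6% were called lower and 35.3% higher, and the median log2 change was -0.01. In exa1-1 the counts were again 58 lower and 1 higher, the median was -0.42, and 36.2% of all genes were called lower and 35.7% higher. The large and small subunit medians were -0.46 and -0.47 in wild type and -0.41 and -0.42 in exa1-1. The spread among the genes was narrow, with an interquartile range of 0.25 log2 units in wild type against 0.90 over all genes. The genes that did not pass were AT1G07770, an RPS15a gene, in wild type (log2 change -0.18, edgeR adjusted p = 0.154) and AT1G74050, an RPL6 gene, in exa1-1 (-0.01, adjusted p = 0.843).

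The gene that rose was SAG24 (AT1G66580), which encodes RPL10, a protein that joins the large subunit late in its assembly. It had 279, 306 and 297 CPM (counts scaled by library size and TMM factor within the series) in wild type on 1/2 MS and 488, 460.1 and 448 under NaCl. In exa1-1 it had 281, 289 and 284 CPM and, under NaCl, 438, 427 and 449. All NaCl libraries lay above all 1/2 MS libraries. The log2 change was 0.66 ± 0.05 (SE, n = 3 against 3) in wild type (edgeR adjusted p = 2.26e-11) and 0.62 ± 0.02 in exa1-1 (edgeR adjusted p = 6.14e-11). Its paralogues moved the other way: SAC52 (AT1G14320) had 769, 837 and 855 CPM in wild type on 1/2 MS and 618, 602 and 579.7 under NaCl.

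Deep falls were found in genes of low level. AT2G40010, for RPP0, which carries the acidic stalk proteins of the large subunit, had 15.9, 16.7 and 16.5 CPM in wild type on 1/2 MS and 3.97, 6.53 and 5.35 under NaCl. Its log2 change was -1.63 ± 0.21 (edgeR adjusted p = 1.04e-10) in wild type and -1.36 ± 0.08 in exa1-1 (edgeR adjusted p = 4.45e-10). RPSAb (AT3G04770), for the small subunit protein SA, had 54.7, 51.4 and 60.2 CPM on 1/2 MS and 22.9, 25.4 and 23.6 under NaCl, a change of -1.21 ± 0.08 (edgeR adjusted p = 2.9e-13). In exa1-1 it changed by -0.97 ± 0.03 (edgeR adjusted p = 1.25e-11). For both genes the NaCl libraries lay below the 1/2 MS libraries in both genotypes.

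The smallest falls that passed were those of AT1G74050 (RPL6, -0.11) and RPS18C (AT4G09800, a head protein of the small subunit, -0.13) in wild type, and of AT4G34670 (RPS3a, -0.13) and RPS18C (-0.13) in exa1-1. Across the 60 genes, those of higher mean FPKM tended to have the smaller fall. Spearman's rho of level and log2 change was 0.45 in wild type and 0.47 in exa1-1, a description across genes that share libraries. The level was the mean over all 24 libraries, those under NaCl included, so level and change are not independent. Under heat with TMM scaling rho was 0.38 and 0.41, and rho over all genes is not given here. The 2 salt responses differed by test in 1 of the 60 genes, while among all genes the change was called higher in exa1-1 for 6.02% and lower for 5.16% (edgeR).

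**Figure D2:**
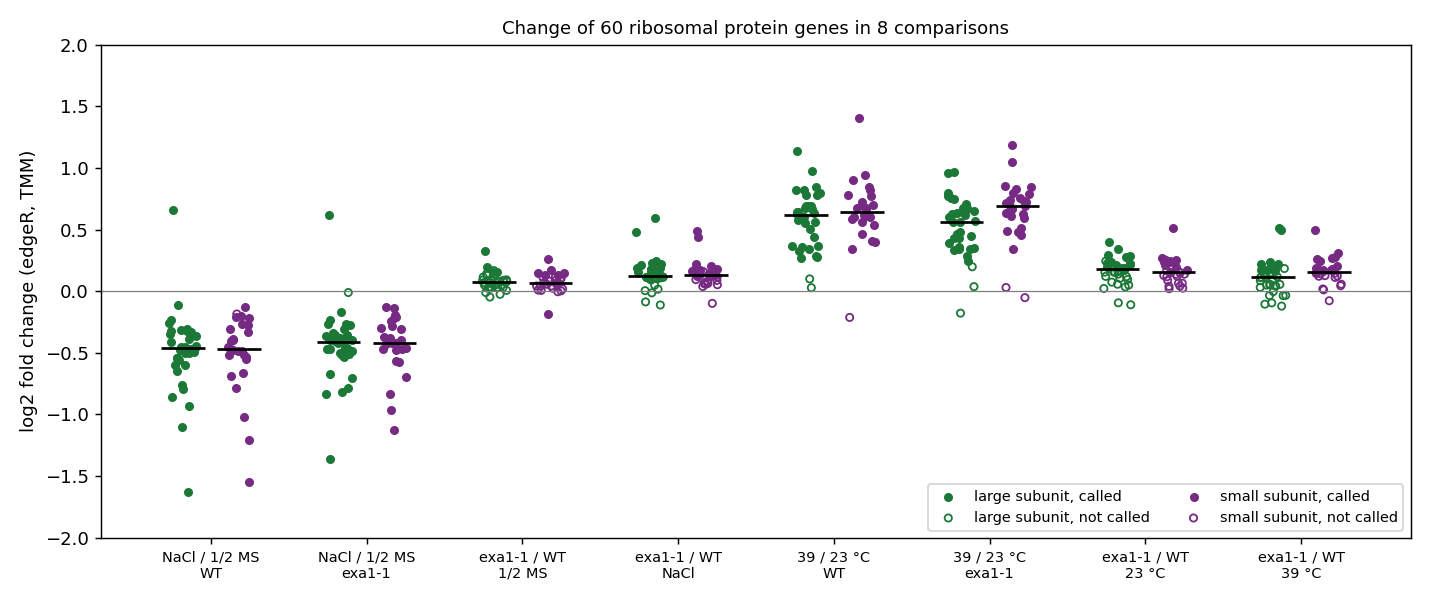
Log2 fold change of each of the 60 genes (edgeR, TMM scaling) in 8 comparisons, green for large and purple for small subunit genes, filled where the adjusted p was under 0.05, with black lines for medians. Nearly all genes lie below 0 under NaCl, where SAG24 stands alone above it, nearly all lie above 0 at 39 °C under this scaling, and the genotype comparisons have medians of 0.07 to 0.16.

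Under heat the direction depended on how the libraries were scaled. With TMM scaling, which assumes that most genes keep their level, 57 of 60 genes were higher and 0 lower at 39 °C in wild type and 55 higher and 0 lower in exa1-1, with medians of 0.62 in both. Among all genes, 38.4% were called higher in each genotype, 41.6% lower in wild type and 41.8% lower in exa1-1, and their medians were -0.07 and -0.08. The genes with no call in wild type were RPL10B (AT1G26910, 0.10), RPL23AB (AT3G55280, 0.03) and AT5G39850 (RPS9, -0.21). In exa1-1 they were the same 3 genes, at 0.20, -0.18 and 0.03 with AT1G70600 (RPL27a, 0.04) and 1 further gene. With total counts as the scale, 2 genes were higher and 44 lower in wild type and 0 higher and 55 lower in exa1-1, with medians of -0.26 and -0.37. Of all genes, 14.6% were then higher and 72.5% lower in wild type and 12.3% and 76.7% in exa1-1, and the medians were -0.95 and -1.08.

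A change of scale shifts every gene by nearly the same amount (TMM minus total counts, 0.88 log2 units in wild type for each of the 60 genes), so the distance between the medians is fixed by construction. The median of the 60 genes minus that of all genes was 0.70 with TMM and 0.69 with total counts in wild type, and 0.70 with both in exa1-1. RLE size factors gave 57 and 55 genes higher and 0 lower, with 39% of all genes higher and 41% lower. Upper quartile scaling gave 47 higher and 2 lower in wild type and 43 higher and 3 lower in exa1-1, with medians of 0.35 and 0.33 against -0.35 and -0.37 for all genes. With it 29.8% of all genes were higher and 51.4% lower in wild type, and 29.1% and 51.9% in exa1-1. Totals of nuclear protein-coding genes gave the gene counts of total scaling, with 72.4% of all genes lower in wild type. The 616 genes called at least 8-fold higher at 39 °C in wild type took 1.03 to 1.08% of counts at 23 °C and 26.1 to 27.1% at 39 °C there, and 29.8 to 30.4% at 39 °C in exa1-1. As a share of the counts left without those genes, an alternative chosen after the data were seen, the 60 genes took 1.46 to 1.60% at 23 °C and 1.71 to 1.82% at 39 °C in wild type. In exa1-1 the shares were 1.74 to 1.84% and 1.91 to 2.09%. The 616 genes were picked for their rise in these same libraries, so leaving them out raises the 39 °C shares by construction. These shares therefore do not show a direction. Total RNA per seedling was not analysed here, so a change per cell cannot be told apart from a change relative to other transcripts.

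**Figure D3:**
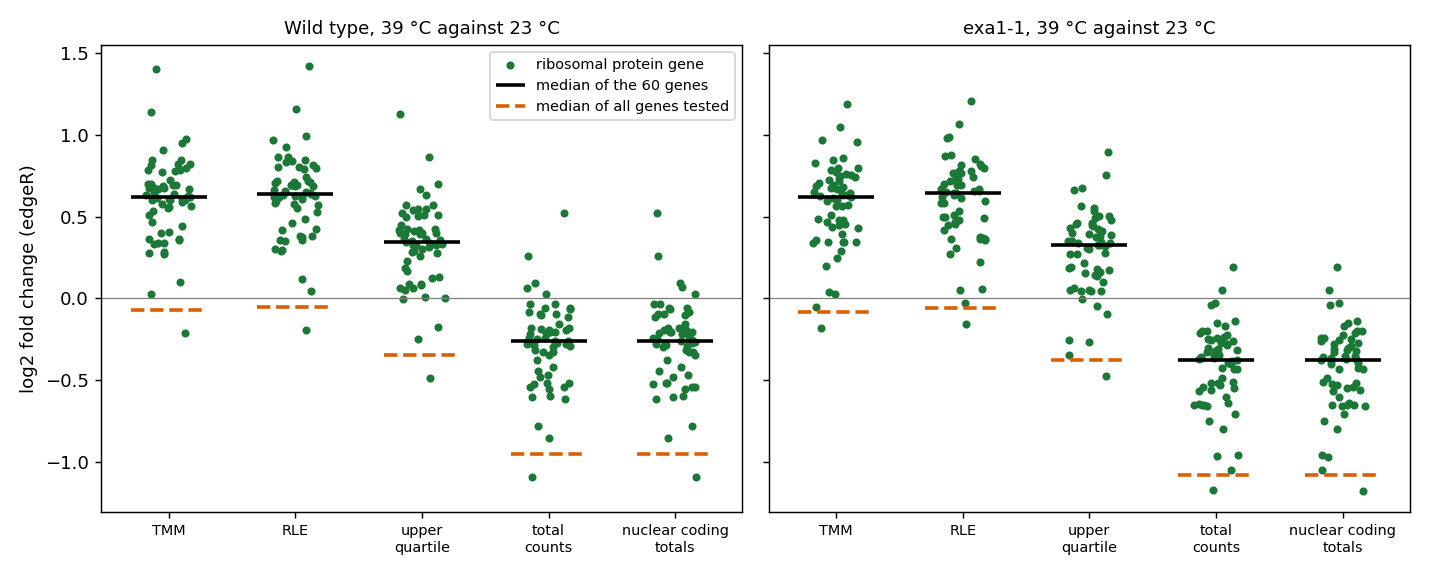
Log2 fold change of each of the 60 genes at 39 °C against 23 °C (edgeR) under 5 scalings of the libraries, wild type left and exa1-1 right, with the median of the 60 genes (black) and of all genes tested (orange, dashed). The genes lie mostly above 0 with TMM, RLE and upper quartile scaling and mostly below 0 with total counts, while the distance between the medians stays at 0.69 to 0.70.

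In wild type 2 genes were called higher under all 5 scalings, and in exa1-1 0 genes were. The share of all genes called higher under all 5 scalings is not given here. Under total counts alone, 14.6% of all genes were called higher in wild type and 12.3% in exa1-1 (edgeR). Whether the 2 genes exceed the share among all genes was not tested. RPSAb (AT3G04770) had 7.34, 9.81 and 8.32 CPM at 23 °C and 21.8, 22.5 and 23.2 at 39 °C in wild type, with no overlap. Its log2 change was 1.40 ± 0.12 with TMM (edgeR adjusted p = 4.15e-10) and 0.52 with total counts (edgeR adjusted p = 0.000427). AT5G02870, for RPL4, which lines the exit tunnel of the large subunit, had 193, 203 and 193 CPM at 23 °C and 419.7, 442 and 432 at 39 °C. It changed by 1.14 ± 0.03 with TMM (edgeR adjusted p = 1.04e-12) and by 0.26 with total counts (edgeR adjusted p = 0.000855). In exa1-1 the total count values were 0.19 for RPSAb (edgeR adjusted p = 0.123) and -0.03 for AT5G02870 (edgeR adjusted p = 0.672).

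Other genes with large values under TMM were RP1 (AT1G43170), for RPL3 at the peptidyl transferase centre, and PFL (AT1G22780), for RPS18. RP1 had 517, 518 and 516 CPM at 23 °C and 1013, 984 and 1050.0 at 39 °C in wild type, a log2 change of 0.97 ± 0.03. PFL had 97.4, 92.4 and 97.8 CPM at 23 °C and 206, 197 and 191 at 39 °C in exa1-1, a log2 change of 1.05 ± 0.04. The smallest values that passed under TMM in wild type were 0.28 for AT3G11250 (RPP0), 0.28 for PGY1 (AT2G27530, RPL10a) and 0.27 for AT1G70600 (RPL27a), and all 3 were negative with total counts, at -0.60, -0.60 and -0.61. In exa1-1 they were 0.34 for PGY1, 0.29 for AT1G18540 (RPL6) and 0.25 for AT3G11250, and -0.66, -0.71 and -0.75 with total counts. The heat responses of the genotypes differed by test in 0 of 60 genes with TMM (edgeR; 4 genes at an unadjusted p under 0.05), while among all genes the change was called higher in exa1-1 for 4.36% and lower for 3.69%. With total counts the change was called lower in exa1-1 for 5 of the 60 genes and for 7.42% of all genes. DESeq2 called 2 of the 60, and its share of all genes is not given here.

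Where genes differed between genotypes, nearly all were slightly higher in exa1-1, in libraries whose shoot marker share was lower than in wild type, as given above. The part of that difference in the result was not tested. On 1/2 MS 10 genes were higher and 1 lower in exa1-1, with a median log2 difference of 0.07, while 8.14% of all genes were higher and 10.1% lower. Under NaCl 32 genes were higher and 0 lower (median 0.13, 15.9% of all genes higher and 13.6% lower). At 23 °C 26 were higher and 0 lower (median 0.16, 8.27% of all genes higher and 11.2% lower), and at 39 °C 21 were higher and 0 lower (median 0.14, 12.7% of all genes higher and 11.7% lower). The medians over all genes were 0.00, 0.02, 0.00 and 0.01. Leaving out single libraries moved the counts of called genes to between 2 and 14, 14 and 33, 18 and 33, and 10 and 27. With total counts the numbers higher were 10, 32, 35 and 10, beside 8.29, 15.1, 13.0 and 8.94% of all genes.

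Larger differences between genotypes were found in low paralogues. AT2G40010 was higher in exa1-1 by 0.32 ± 0.07 on 1/2 MS (edgeR adjusted p = 0.0281), by 0.59 ± 0.21 under NaCl (edgeR adjusted p = 0.00197) and by 0.51 ± 0.02 at 39 °C (edgeR adjusted p = 0.00289). At 39 °C its CPM was 9.17, 9.02 and 9.20 in wild type and 12.7, 13.1 and 13.3 in exa1-1. RPL10B (AT1G26910) was higher by 0.48 ± 0.05 under NaCl, with 15.9, 15.5 and 14.9 CPM in wild type and 22.8, 20.4 and 21.6 in exa1-1 (edgeR adjusted p = 0.000137). It was higher by 0.40 ± 0.04 at 23 °C and 0.50 ± 0.19 at 39 °C. In each of these conditions its libraries did not overlap between genotypes.

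AT5G39850, for RPS9, near the mRNA entry of the small subunit, was higher by 0.26 ± 0.04 on 1/2 MS and 0.49 ± 0.11 at 39 °C. The gene that was lower was RPSAb on 1/2 MS, at -0.18 ± 0.07 (edgeR adjusted p = 0.0345), with 54.7, 51.4 and 60.2 CPM in wild type and 47.9, 49.6 and 49.1 in exa1-1. That call was lost without wild type replicate 1 or 3 or any 1 of the exa1-1 replicates on 1/2 MS, with values of -0.24 to -0.12 over the AT3G04770 fits that leave out a library, and with all 24 libraries in 1 fit. AT1G77940, for RPL30, was higher at 23 °C by 0.34 ± 0.07, and AT4G16720, for RPL15, on 1/2 MS by 0.20 ± 0.06. Small differences that passed, between 0.11 and 0.17, were those of ATL5 (AT3G25520, RPL5), emb2386 (AT1G02780, RPL19) and RPS5B (AT2G37270) under NaCl, RPS10B (AT5G41520) at both temperatures, AT3G62870 (RPL7a) at 23 °C, AT1G67430 (RPL17) at 39 °C and AT5G28060 (RPS24) on 1/2 MS. These calls were fragile. Over the fits that leave out 1 of the 12 libraries, those of the 3 genes under NaCl were lost 32 times, counted per gene and fit. Among the genes named by the rule for 1/2 MS, larger differences included, 5 lost their call, 28 times in all. At 23 °C 4 such genes did so 19 times, and at 39 °C 3 genes 17 times. In such fits emb2386 went down to 0.066 and ATL5 to 0.069 under NaCl, and AT5G28060 to 0.084 on 1/2 MS.

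Both control sets were unstressed, yet they differed in most of the 60 genes. At 23 °C 52 of 60 genes were lower and 2 higher than on 1/2 MS, with a median of -0.62, while 38.4% of all genes were called lower and 37.4% higher (edgeR, mean over both genotypes). The 2 higher genes were RPS18C (0.12) and AT1G74050 (0.14). What differed in handling between the series cannot be told apart from the control set, and no treatment effect was tested across them. The genotype and treatment comparisons of 1 series share their control libraries.

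Within families the ratio of paralogues was followed. The log2 ratio of counts of 2 paralogues in a library does not depend on the scaling of libraries, and was tested in 30 pairs of the 20 families with more than 1 gene, over both genotypes or both conditions at once (exact two-sided permutation test within strata, Benjamini-Hochberg adjusted over 120 tests). The ratio changed in 28 pairs under salt, in 21 under heat, in 8 between genotypes in the salt series and in 10 in the heat series. In the same order, 28, 12, 5 and 6 of these pairs had groups without overlap in both genotypes or both conditions. The median size of the change was 0.35 log2 units under salt and 0.27 under heat. The 8 became 5 without exa1-1 NaCl replicate 1. Pairs of unrelated genes were not tested. The smallest p that the 400 arrangements allow is 0.005, which gives an adjusted p of 0.0118. Pairs of 1 family of 3 share genes. No gene shared a run of 100 bases with a paralogue among the 60 in the TAIR10.1 genome. Of the 60, 10 overlap a gene on the opposite strand, among them AT2G40010, AT1G72370 and AT3G18740. The strand setting of the counting was not stated, so reads of such partners cannot be told apart. Some of the 60 also overlap a gene on the same strand, where strand does not separate the reads. Among them RPSAb shares 2.24% of its 100-base windows with AT3G04780, and AT3G09200 shares 0.0685% with AT3G09210.

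In the RPL10 family SAG24 gained on both paralogues under salt, and RPL10B lost against both under salt and heat. The log2 ratio of SAC52 to SAG24 was 1.46, 1.45 and 1.52 in wild type on 1/2 MS and 0.34, 0.39 and 0.37 under NaCl, and 1.63, 1.71 and 1.62 and then 0.63, 0.58 and 0.49 in exa1-1. It changed by -1.10 ± 0.03 (exact permutation adjusted p = 0.0118). SAG24 made up 25.7% ± 0.5 (SD, n = 3) of the family's counts in wild type on 1/2 MS and 43.1% ± 0.4 under NaCl. In exa1-1 these shares were 23.4% ± 0.6 and 39.5% ± 1.2. The ratio of RPL10B to SAG24 changed by -1.58 ± 0.04 under salt and -0.58 ± 0.09 under heat, and was higher in exa1-1 by 0.39 ± 0.04 in the salt series and 0.52 ± 0.09 in the heat series. The ratio of SAC52 to RPL10B rose by 0.50 ± 0.10 under heat.

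Other families changed under salt, under heat or under both. The ratio of AT3G09200 to AT2G40010, both RPP0, was 5.44, 5.43 and 5.46 in wild type on 1/2 MS and 7.18, 6.47 and 6.72 under NaCl. It rose by 1.16 ± 0.11 over both genotypes, and that of AT2G40010 to AT3G11250 fell by 0.93.

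Under heat the largest change was in RPS9, where the ratio of AT5G15200 to AT5G39850 was 4.99, 4.75 and 4.92 in wild type at 23 °C and 5.90, 5.89 and 6.01 at 39 °C. Over both genotypes it rose by 0.93 ± 0.07 (exact permutation adjusted p = 0.0118), and the share of AT5G39850 in the family's counts was 3.27% ± 0.28 (SD, n = 3) at 23 °C and 1.60% ± 0.07 at 39 °C in wild type. The same RPS9 ratio rose by 0.46 ± 0.04 under salt. In RPL23a, at the exit of the tunnel, the ratio of RPL23AA (AT2G39460) to RPL23AB was 1.88, 1.83 and 1.84 at 23 °C and 2.63, 2.46 and 2.45 at 39 °C. It rose by 0.66 ± 0.05. In RPSa the ratio of P40 (AT1G72370) to RPSAb fell by 0.58 ± 0.07 under heat. Under salt it rose by 0.66 ± 0.04, being 4.15, 4.27 and 4.05 on 1/2 MS and 4.97, 4.85 and 4.91 under NaCl in wild type. The ratio of AT3G09200 to AT3G11250 rose by 0.47 ± 0.03 under heat.

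Between genotypes the ratio of AT3G09200 to AT2G40010 was lower in exa1-1 by 0.43 in the salt series, and that of AT2G40010 to AT3G11250 higher by 0.36. These are means over both conditions. The first change was -0.23 on 1/2 MS and -0.62 under NaCl, and the second 0.28 and 0.44, with overlap under NaCl. The ratio of AT5G15200 to AT5G39850 was lower by 0.22 in the salt series and by 0.23 in the heat series. Its heat series values were -0.12 at 23 °C, with overlap, and -0.35 at 39 °C. The ratio of AT1G77940 to AT3G18740, both RPL30, was higher by 0.20 in the salt series and 0.31 in the heat series. Its heat series values were 0.46 at 23 °C and 0.17 at 39 °C. SAC52 to SAG24 was higher by 0.19 in the salt series and 0.20 in the heat series. In the heat series SAC52 to RPL10B was lower by 0.32 and RPL23AA to RPL23AB by 0.18.

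**Figure D4:**
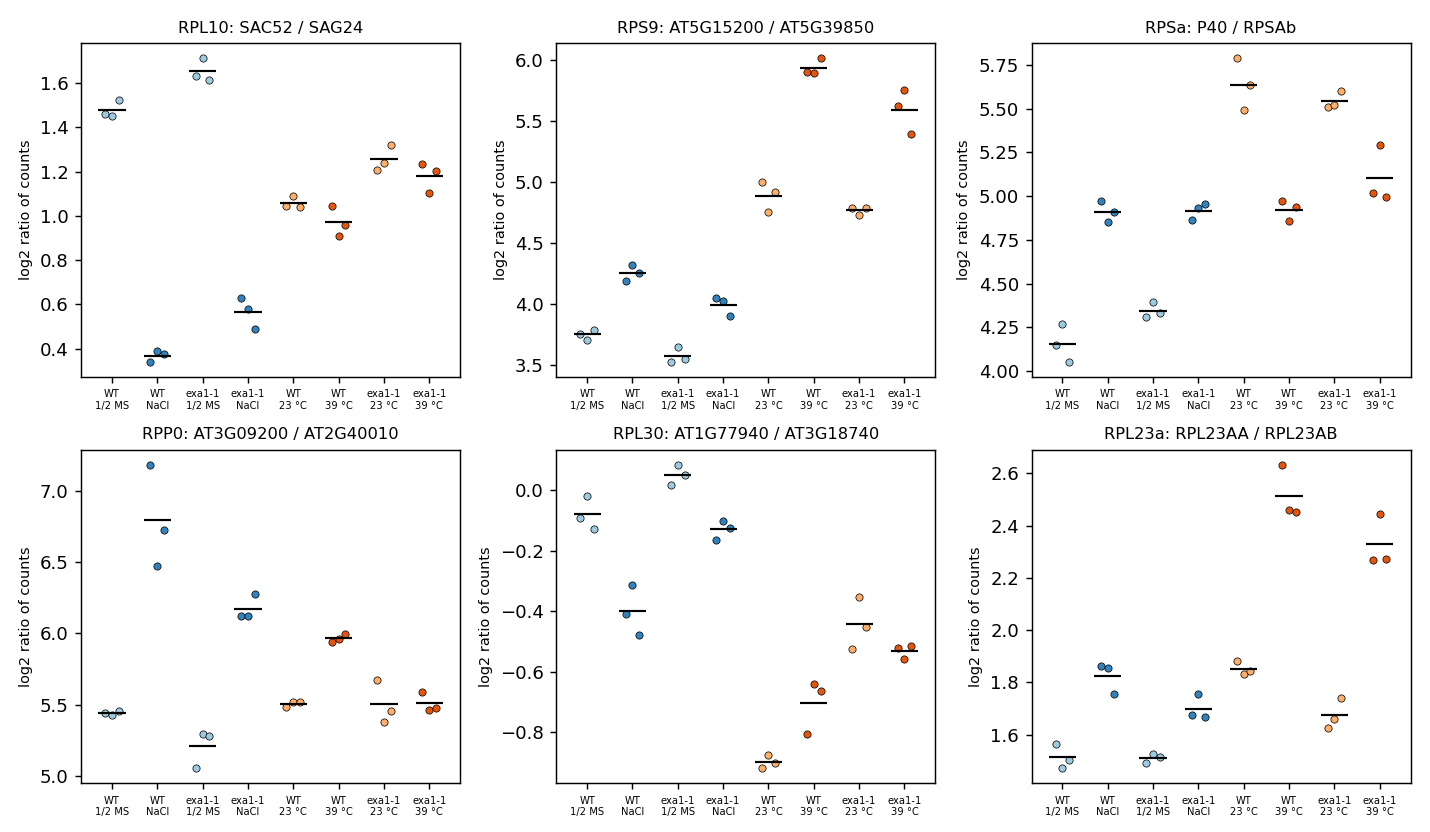
Log2 ratio of counts of 2 paralogues in each library for 6 families, with points for the 3 libraries and lines for the mean of each group. The RPL10 ratio falls from 1.45 to 1.71 on 1/2 MS to 0.34 to 0.63 under NaCl, the RPS9 ratio is highest at 39 °C, and the RPSa ratio moves up under NaCl and down at 39 °C.

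Other genes of the translation machinery were followed as lists of known function. Of 144 tested genes among 154 further cytosolic ribosomal protein genes, 141 were lower and 1 higher under salt in wild type (median -0.47), and 139 and 1 in exa1-1. At 39 °C 125 were higher and 5 lower in wild type with TMM, and 5 higher and 96 lower with total counts. The gene RPL3B (AT1G61580) stood apart, at -1.65 ± 0.06 under salt and 2.42 ± 0.12 at 39 °C in wild type. Of 34 ribosome assembly and nucleolar genes, 27 were lower and 3 higher under salt in wild type and 22 were higher and 3 lower at 39 °C with TMM, or 7 and 21 with total counts. FIB2 (AT4G25630), a fibrillarin of ribosomal RNA modification, was at -1.54 ± 0.08 under salt, and NMD3 (AT2G03820), an export adapter of the large subunit, at 2.33 ± 0.04 at 39 °C.

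Of the translation elongation factor genes, 9 of 11 were lower and 0 higher under salt and 11 of 11 higher at 39 °C with TMM in wild type, or 6 higher and 3 lower with total counts. AT5G12110 changed by -1.40 ± 0.08 under salt and by 7.06 ± 0.10 at 39 °C. Of 6 TOR and S6 kinase genes 4 were higher and 0 lower under salt in each genotype, where 35.3 and 35.7% of all genes were higher, with S6K2 (AT3G08720) at 1.59 ± 0.08 in wild type. Of 29 nuclear genes of plastid ribosomal proteins, 22 were higher and 1 lower under salt in wild type, and 1 was higher and 13 lower in exa1-1. Their salt responses differed by test in 27 of 29 genes, all lower in exa1-1, beside 5.16% of all genes. The mean share of shoot markers went from 1.11 to 1.68% in wild type and from 0.85 to 1.03% in exa1-1 between 1/2 MS and NaCl, and its part in this was not tested. At 39 °C 29 of 29 were higher in both genotypes with TMM, and 25 and 21 with total counts. The lists were compiled with earlier results of these data known, and serve as description.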

How the data were processed

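Strand-specific mRNA of whole seedlings was sequenced as paired reads. Per the submitters' processing notes the tools were HISAT2 2.0.4 and HTSeq 0.6.1p1 with the genome TAIR10. Counting mode, strand setting and annotation release are not stated. The deposited gene counts were whole and not normalised. The deposited FPKM values were computed by the authors from length and library total, and 28251 genes had them. The 60 genes and all lists were chosen with earlier results of these data known.

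Counts were tested with edgeR 4.0.16 (R 4.3.3), by quasi-likelihood F tests with TMM scaling, filterByExpr, 1 mean per group and Benjamini-Hochberg adjustment over all genes tested, called at an adjusted p under 0.05. The salt series, the heat series and the controls were fitted as sets of 12 libraries. SEs come from log2 CPM with a prior count of 2. Libraries held 17658196 to 20992263 counts, which limits the precision of low genes. Replicates correlated at 0.985 to 0.994. Alternatives were other scalings, filters, DESeq2 1.42.0, limma 3.58.1 on log2 FPKM, a replicate block and leaving out each library. The scripts were tested on simulated data. Genes named were the 3 highest and 3 lowest called per contrast, up to 6 called pairs per paralogue comparison, the extremes of level, and up to 3 genes per further list, with others named for their place in a count. The batch label was the same in every library and gave no split. Coordinates and sequences come from the RefSeq annotation of TAIR10.1. Some genes are not reported here by name.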

Additional observations from a re-analysis of the deposited data

Results flagged for a closer look

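Of 29 nuclear genes of plastid ribosomal proteins, 27 had a salt response that differed between genotypes by test (edgeR interaction), with a median difference of -0.33, and with total counts the number was also 27, while 5.16% and 5.4% of all genes were lower. Of 34 ribosome assembly and nucleolar genes, 10 had a higher response in exa1-1, with a median difference of 0.17, and 7 did with total counts, while 6.02% and 5.61% of all genes were higher. Shoot marker shares, which differed between genotypes, were not tested as a part of these differences.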

How the results depend on the processing

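The direction under heat turned with the scaling. With total counts 72.5% of all genes were lower in wild type and 76.7% in exa1-1. Total counts and totals of nuclear protein-coding genes called 46 of 60 genes in wild type and 55 in exa1-1, mostly lower, with medians of -0.26 and -0.37, and limma on log2(FPKM + 1) or log2(FPKM + 0.1) gave 46 and 55, or 43 and 55 without a filter, with the same medians. Under these settings AT3G11250 was at -0.60, -0.59 or -0.57 in wild type, AT2G27530 at -0.60 and AT1G70600 at -0.61. In exa1-1 AT5G02870 was at -0.028, -0.029 or -0.027, AT2G27530 at -0.66 or -0.65, AT1G18540 at -0.71 or -0.70 and AT3G11250 at -0.75, -0.74 or -0.72. Upper quartile scaling put AT1G70600 at -0.0063 in wild type and AT1G18540 at -0.0041 and AT3G11250 at -0.045 in exa1-1.

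The difference of heat responses gave 5 genes with total counts or nuclear totals, 2 with upper quartile scaling, a mean of at least 10 counts or DESeq2, 1 with all 24 libraries in 1 fit and 3 with limma. Of all genes, 9.35% were called with total counts, 9.42% with nuclear totals and 7.86% with upper quartile scaling, in either direction. At 39 °C exa1-1 differed from wild type in 10 genes with total counts, nuclear totals or limma, 8 with limma without a filter and 33 with DESeq2. Under NaCl it differed in 21 genes with no filter or with a mean of at least 10 counts and in 18 with all 24 libraries, and on 1/2 MS in 6 with all 24 libraries and 5 with limma without a filter. The difference of salt responses gave 0 with all 24 libraries (edgeR). The shares of all genes under the other settings are not given here, so those counts describe only the stability of the calls. The cause of these shifts was not tested.

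The median over genes put the large minus small difference at 0.32, 0.38, 0.26 and 0.33 in wild type on 1/2 MS and NaCl and exa1-1 on 1/2 MS and NaCl, at 0.16 and 0.13 in wild type at 23 °C and 39 °C and at 0.076 and -0.036 in exa1-1. Without the genes at least 8-fold higher at 39 °C, a choice made after seeing the data, the mean share was 1.80% and 1.96% under NaCl and 1.77% and 1.99% at 39 °C in wild type and exa1-1. Leaving out genes picked for their rise at 39 °C raises the 39 °C share by construction.

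Same-numbered replicates did not deviate together (correlations -0.0497 to 0.0925), so the numbers were not taken as pairs. With a replicate block the numbers called were 59 and 59 under salt, 1 for their difference, 8 and 32 between genotypes on 1/2 MS and NaCl, 57 and 55 under heat, 0 for their difference, 22 and 20 between genotypes at 23 °C and 39 °C, 54 between controls, and 28, 22, 10 and 10 pairs. The numbers over all genes with a replicate block are not given here.

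Leaving out 1 library gave 57 to 59 and 58 to 59 genes under salt, 56 to 58 and 55 to 56 under heat, 54 to 55 between controls and 0 to 2 for either difference. Between genotypes it gave 2 to 14 on 1/2 MS, 14 to 33 under NaCl, 18 to 33 at 23 °C and 10 to 27 at 39 °C. In the same order 2689 to 4285, 4727 to 6243, 2482 to 4285 and 3844 to 5568 of all genes were called. Under salt these were 14490 to 15363 in wild type and 14686 to 15657 in exa1-1. Under heat they were 16246 to 16992 and 16207 to 16997, and between controls 15767 to 16155. The differences gave 1826 to 2452 for salt and 965 to 1596 for heat. Genes tested with every library were 21462 for salt and 20972 for heat. Pairs numbered 28 to 29 under salt, 15 to 21 under heat, and 5 to 11 and 8 to 11 between genotypes. On 1/2 MS the count was 3, 5 and 6 without wild type 1/2 MS replicates 1, 2 and 3, 2 and 5 without exa1-1 1/2 MS replicates 2 and 3, 7 without wild type NaCl replicate 3, and 7 without any of the exa1-1 NaCl replicates. Under NaCl it was 21 without wild type 1/2 MS replicate 2, 14 without wild type NaCl replicate 3, 20 and 19 without exa1-1 1/2 MS replicates 1 and 3, and 15, 17 and 15 without exa1-1 NaCl replicates 1, 2 and 3. At 39 °C it was 11 without wild type replicate 1 and 10 without exa1-1 replicate 1 of that temperature, and the pairs between genotypes in the salt series numbered 5 without exa1-1 NaCl replicate 1. Of 588 values of named genes without 1 library, 107 lost their call and 0 turned.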
